A study of Mus musculus with 59 samples.

Results

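The 10 genes described here mark newly made, migrating neurons and were followed through 59 arrays of mouse brain. They were Dcx, Sox4, Sox11, Igfbpl1, Dpysl3, Dpysl5, Tubb3, Tubb2b, Stmn1 and Stmn2, chosen by name as every probe set whose only gene symbol in the platform annotation was one of these. This gave 31 of 45101 probe sets and 10 of 18194 named genes. Each gene was represented by its probe set with the highest mean over all arrays, and the remaining probe sets were read beside it.

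When a progenitor cell of the brain leaves the cell cycle, the SoxC transcription factors Sox4 and Sox11 help to switch on the genes of the neuronal cytoskeleton. The young neuron then moves along radial fibres or in chains and sends out a leading process, which needs a microtubule array that is continually built and taken apart. Doublecortin (Dcx) binds and stabilises those microtubules, the beta-tubulins Tubb3 and Tubb2b are their subunits, the stathmins Stmn1 and Stmn2 hold free tubulin, and the collapsin response mediators Dpysl3 and Dpysl5 link guidance signals to the growth cone. Igfbpl1, an insulin-like growth factor binding protein-like gene, is known as a marker of newborn neurons. In the adult, Dcx-positive young neurons persist in the dentate gyrus of the hippocampus, where running is known to raise their number.

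The series asked how prenatal valproic acid acts on the embryonic brain and on the adult hippocampus. Pregnant C57BL/6 mice were given 300 mg/kg valproic acid (VPA), 300 mg/kg valpromide (VPM) or the vehicle, 0.5% methylcellulose (MC), by mouth on 3 days from E12.5 to E14.5. Valpromide carries an amide in place of the carboxylic acid of VPA. Telencephalon was dissected 3 h after the dose of E14.5, and hippocampus and forebrain were taken at E18.5, each with 3 arrays for MC, VPA and VPM. Hippocampus and cortex of male offspring aged 12 to 13 weeks gave 3 arrays for each of MC, VPA, MC with a running wheel and VPA with a running wheel, the wheel being placed in the cage after weaning. A further set of hippocampi from males at postnatal day 84 gave 4 arrays for MC and 4 for VPA. No adult VPM group is analysed here. The labels do not say which dam or litter an animal came from, so the p-values measure the spread between these samples. Embryo sex is not labelled either. Signal of Xist, a transcript of female cells, was above 200 on 12 of 27 embryonic arrays and on 0 adult arrays. At E14.5 it was high on 1 MC, 2 VPA and 2 VPM arrays. All levels are deposited signals, rescaled so that the 2% trimmed mean of an array is 500, with signals under 32 set to 32 before log2. Tests are limma's moderated test with Benjamini-Hochberg adjustment over all genes tested, and a gene is called higher or lower at an adjusted p under 0.05.

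Some measurements of the whole series touch these genes. Markers of the choroid plexus, the tissue inside the ventricles that makes cerebrospinal fluid, varied between arrays: Ttr was 19331 on VPM replicate 3 at E14.5 against 7.95 to 105 on the other 8 telencephalon arrays. At E18.5 the summed choroid markers ran from 17848 to 25545 in MC forebrain and from 541 to 4899 in VPA forebrain. In the adult vehicle arrays, striatal markers summed to 20697 to 26192 in the samples labelled cortex and to 4886 to 5432 in hippocampus.

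The promoters of the 3 genes called in the VPA telencephalon, Dcx, Sox4 and Tubb3, and of Sox11, whose probe sets differ most, are shown to give the sequence at the start of the genes on which the E14.5 results turn. RefSeq's promoter table (GRCm38.p6) held 5 of the 10 genes. The 250 bases before the annotated start are given 5′ to 3′ on the gene's own strand, with matches to the E-box CANNTG, bound by proneural factors, and to the Sox cores ACAAAG and AACAAT in capitals. Both strands were searched, as they were for TATAAA and the GC box GGGCGG, which are not marked.
Dcx, chrX:143933125-143933374, minus strand: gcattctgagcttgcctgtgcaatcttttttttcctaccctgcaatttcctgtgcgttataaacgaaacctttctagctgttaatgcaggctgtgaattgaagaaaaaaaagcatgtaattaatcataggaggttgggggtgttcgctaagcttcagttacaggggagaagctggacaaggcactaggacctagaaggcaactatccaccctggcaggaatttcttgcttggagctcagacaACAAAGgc
Sox4, chr13:28953700-28953949, minus strand: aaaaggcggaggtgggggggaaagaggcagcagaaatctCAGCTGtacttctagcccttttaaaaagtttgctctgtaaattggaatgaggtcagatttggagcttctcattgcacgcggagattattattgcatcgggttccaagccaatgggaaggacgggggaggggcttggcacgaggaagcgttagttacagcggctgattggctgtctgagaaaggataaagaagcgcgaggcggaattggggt
Sox11, chr12:27342719-27342968, minus strand: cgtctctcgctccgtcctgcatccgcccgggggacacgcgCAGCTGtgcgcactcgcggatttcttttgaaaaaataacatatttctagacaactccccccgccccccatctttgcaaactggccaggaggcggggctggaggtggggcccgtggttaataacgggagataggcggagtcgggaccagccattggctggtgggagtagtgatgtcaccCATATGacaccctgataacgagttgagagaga
Tubb3, chr8:123411303-123411552, plus strand: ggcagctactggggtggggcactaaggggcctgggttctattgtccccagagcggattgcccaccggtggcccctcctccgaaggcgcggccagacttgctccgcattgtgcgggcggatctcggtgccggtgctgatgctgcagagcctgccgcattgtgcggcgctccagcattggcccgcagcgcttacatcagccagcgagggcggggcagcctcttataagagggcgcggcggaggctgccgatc
The Dcx window shown held an ACAAAG that begins 8 bases before the start and a TATAAA that begins at 193. A second annotated Dcx start, with the window chrX:143933220-143933469 (not shown), had no E-box or Sox core and a TATAAA that begins at 98. The Sox4 window held an E-box at 211, and the Sox11 window held E-boxes at 210 and 32 and GC boxes at 228 and 151. The Tubb3 window held GC boxes at 138 and 46 and no E-box or Sox core. No match overlapped another. Over 32851 promoter windows of this length, 66.2% held CANNTG, 16.5% ACAAAG, 9.42% AACAAT, 12.4% TATAAA and 32.7% GGGCGG, so an E-box in such a window is common.

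At E14.5, Dcx, Tubb3 and Sox4 were lower in the VPA telencephalon than in the MC telencephalon, by 1.18-fold, 1.11-fold and 1.08-fold, and none of the 10 genes was higher. In the VPM telencephalon Stmn2 and Tubb3 were higher than in MC, by 1.27-fold and 1.18-fold. Compared directly, 7 of the 10 genes were lower after VPA than after VPM, with Tubb3, Dcx and Tubb2b lower by 1.31-fold, 1.29-fold and 1.29-fold. Of all genes, 26.8% were called lower for VPA against MC and 5.65% higher for VPM against MC. For VPA against VPM 27% were called lower. Each of these counts of the 10 genes was smaller with the values as deposited, without rescaling. The 3 comparisons share their arrays, so their counts are not independent of each other.

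Dcx had signals of 11415, 11980.2 and 11633 in MC, 9688, 9883 and 10159.8 in VPA and 12496, 12364 and 13599.8 in VPM telencephalon. The 3 VPA arrays lay below every other array and the 3 VPM arrays above every other array. VPA minus MC was -0.24 on the log2 scale (SE 0.05, 95% interval -0.35 to -0.13, adjusted p = 0.00199), and VPA minus VPM was -0.37 (-0.48 to -0.26, adjusted p = 7.95e-05). VPM minus MC was 0.13 with an adjusted p of 0.113. The call for VPA against MC held on leaving out each of the 9 telencephalon arrays in turn, with adjusted p from 0.00159 to 0.00857. It was lost with the values as deposited, without rescaling (-0.23, adjusted p = 0.0812).

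Among the SoxC factors, Sox4 read 19237, 19885 and 20104 in MC, 18426, 18008 and 18372 in VPA and 22022, 21112 and 21021 in VPM. The 3 groups did not overlap. VPA minus MC was -0.11 (SE 0.04, interval -0.21 to -0.02, adjusted p = 0.0462), a call kept on leaving out 1 of the 9 arrays and lost for the other 8, with adjusted p from 0.0471 to 0.145. VPA minus VPM was -0.23 (-0.32 to -0.13, adjusted p = 0.00088). Sox11, its closest relative in the list, read 24684, 27375 and 24932 in MC, 24177, 26402 and 24087 in VPA and 26779.6, 25612 and 27391 in VPM, with all 3 groups overlapping. Its VPA minus MC difference of -0.04 (-0.17 to 0.08) and VPA minus VPM difference of -0.10 (-0.22 to 0.03) did not pass the test.

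The tubulin gene Tubb3, the antigen of the Tuj1 antibody, read 9091, 10278 and 10104 in MC, 8379, 9179 and 8858 in VPA and 11772, 11076 and 11779.7 in VPM. MC and VPA overlapped by 1 array each, and the VPM arrays stood above both. VPA minus MC was -0.16 (SE 0.06, interval -0.29 to -0.03, adjusted p = 0.0418) and was kept on leaving out 3 of the 9 arrays (adjusted p from 0.0114 to 0.137). VPM minus MC was 0.23 (0.10 to 0.36, adjusted p = 0.0261), with an adjusted p of 0.097 without VPM replicate 3. VPA minus VPM was -0.39 (-0.52 to -0.26, adjusted p = 0.000168). Tubb2b, a tubulin in which mutations disturb cortical migration, read 12185, 11521 and 14058 in MC, 11463, 9917 and 12447 in VPA and 15768, 13206 and 14691 in VPM. Its spread within groups was wide, and only VPA minus VPM passed, at -0.37 (-0.58 to -0.16, adjusted p = 0.00601).

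Of the stathmins, Stmn2, also called SCG10 and found in growing axons, read 13369, 12648 and 12515 in MC, 12972, 13080.3 and 12594 in VPA and 15524, 16618 and 16818 in VPM. MC and VPA lay on each other, with a difference of 0.00 (-0.10 to 0.11), and all VPM arrays lay above all others. VPM minus MC was 0.35 (SE 0.05, 0.24 to 0.45, adjusted p = 0.00239), VPA minus VPM was -0.34 (-0.45 to -0.23, adjusted p = 0.000121), and without VPM replicate 3 the first was 0.32 (adjusted p = 0.0151). Stmn1, made by dividing progenitors as well as by young neurons, read 24518, 29159 and 26211 in MC, 24243, 25690.5 and 26458 in VPA and 27747, 27526 and 29405 in VPM. None of its 3 differences passed; VPA minus VPM, at -0.15 (-0.29 to -0.01), had an adjusted p of 0.0675.

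Igfbpl1 read 6060.2, 7342 and 6399 in MC, 5829.8, 6181 and 5809 in VPA and 7242, 6649 and 7217 in VPM. MC overlapped both treatments, while VPA and VPM did not overlap. VPA minus VPM was -0.24 (-0.40 to -0.09, adjusted p = 0.0114), and VPA minus MC, at -0.15 (-0.30 to 0.01), did not pass. The collapsin response mediator Dpysl3 read 14532, 15149 and 14458 in MC, 14106, 15278 and 14106 in VPA and 16273, 15525 and 17119 in VPM, and VPA minus VPM was -0.17 (-0.29 to -0.05, adjusted p = 0.0174). Without VPM replicate 3 that difference was -0.13 (adjusted p = 0.0796). Dpysl5 read 4345, 4296 and 4231 in MC, 4592, 4444 and 3954 in VPA and 5241, 4194 and 5548 in VPM, with all groups overlapping and none of its differences past the test; VPA minus VPM was -0.20 (-0.40 to 0.00).

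**Figure D1:**
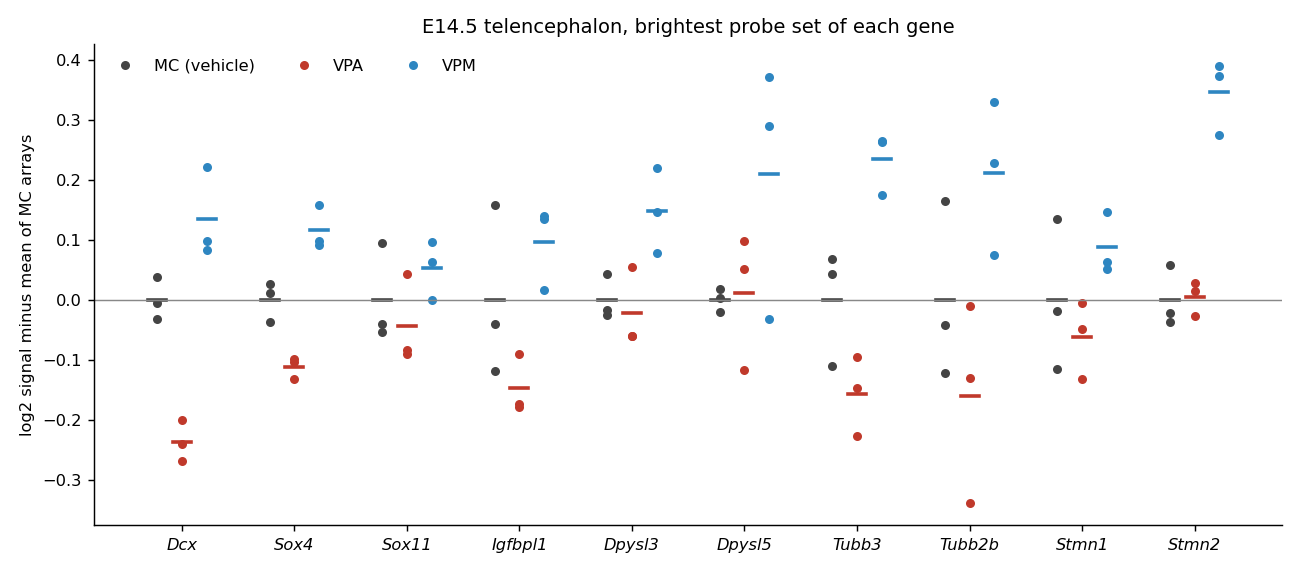
Each point is one telencephalon array at E14.5, plotted as its log2 signal minus the mean of the 3 MC arrays for that gene, and bars are group means. The VPA points of Dcx and Sox4 lie below all MC points, the VPM points of Stmn2 lie above all others, and the groups of Sox11 and Dpysl5 overlap.

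For the whole set of 10, the median VPA minus MC difference was -0.09, with 8 of 10 negative, against a median of 0.00 over all genes tested. Between VPA and MC 53.8% of all genes were called and 26.8% were called lower, so 3 of 10 lower is near the background. MC and VPA arrays did not overlap for 2 of the 10, against 60.2% of all genes. The median VPM minus MC difference was 0.14 with all 10 positive, against -0.01 over all genes. There 5.65% of all genes were called higher and 5.91% lower (11.6% in all), and MC and VPM did not overlap for 5 of the 10 genes and for 32.8% of all genes. The median VPA minus VPM difference was -0.24 with all 10 negative, against -0.01, and 27% of all genes were called lower (54.5% in either direction). VPA and VPM arrays did not overlap for 8 of 10 genes, against 60.7% of all genes. Each of the 10 genes was compared between the 2 drugs at the same dose and time at E14.5. The 3 that did not pass were Sox11, Dpysl5 and Stmn1, with the intervals given above. In whole telencephalon, fewer young neurons and less RNA per neuron cannot be told apart.

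Most other probe sets of the same genes gave lower values for VPA minus MC than the brightest. Of the 31 probe sets 29 passed the filter on low signal. In a fit with every probe set 13 were lower in VPA than in MC and none higher. Of all probe sets 48.4% were called there in either direction. Sox4 and Sox11 had 6 tested sets each and gave 4 of the calls each, so these genes weigh most in the count. The median over the 29 was -0.16, and 26 were negative. Against VPM, 22 of the 29 were lower in VPA with a median of -0.35, where 49.5% of all probe sets were called in either direction. In 7 of the 8 genes with more than 1 tested probe set, most of the dimmer sets had a lower VPA minus MC difference than the brightest, and Dpysl5 was the exception.

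Sox11 varied most between its probe sets. Its brightest set, 1431225_at, stood at 82.6% of the highest signal on the array and differed by -0.04 between VPA and MC. The set 1436790_a_at, at 10.5%, had means of 3930 ± 219 in MC, 2294 ± 381 in VPA and 3592 ± 579 in VPM (SD, n = 3) and differed by -0.79 (adjusted p = 0.000305). Sets 1429051_s_at, 1429372_at and 1453002_at differed by -0.38, -0.34 and -0.30 and passed, and 1453125_at, at -0.14, did not. The same was seen for Stmn1, whose set 1448113_at had means of 4747 ± 710.3 in MC and 3517 ± 404 in VPA (SD, n = 3) and differed by -0.43 (adjusted p = 0.0106), while its brightest set, at 86% of the array maximum, differed by -0.06. Dcx set 1418140_at had means of 1152 ± 129.5 in MC and 678 ± 111 in VPA (SD, n = 3), a difference of -0.77 (adjusted p = 0.000253). For Sox4, 4 dimmer sets passed at -0.29 to -0.37, where the brightest differed by -0.11. The second Igfbpl1 set, 1450960_at, differed by -0.38 between VPA and MC (adjusted p = 0.000585).

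**Figure D2:**
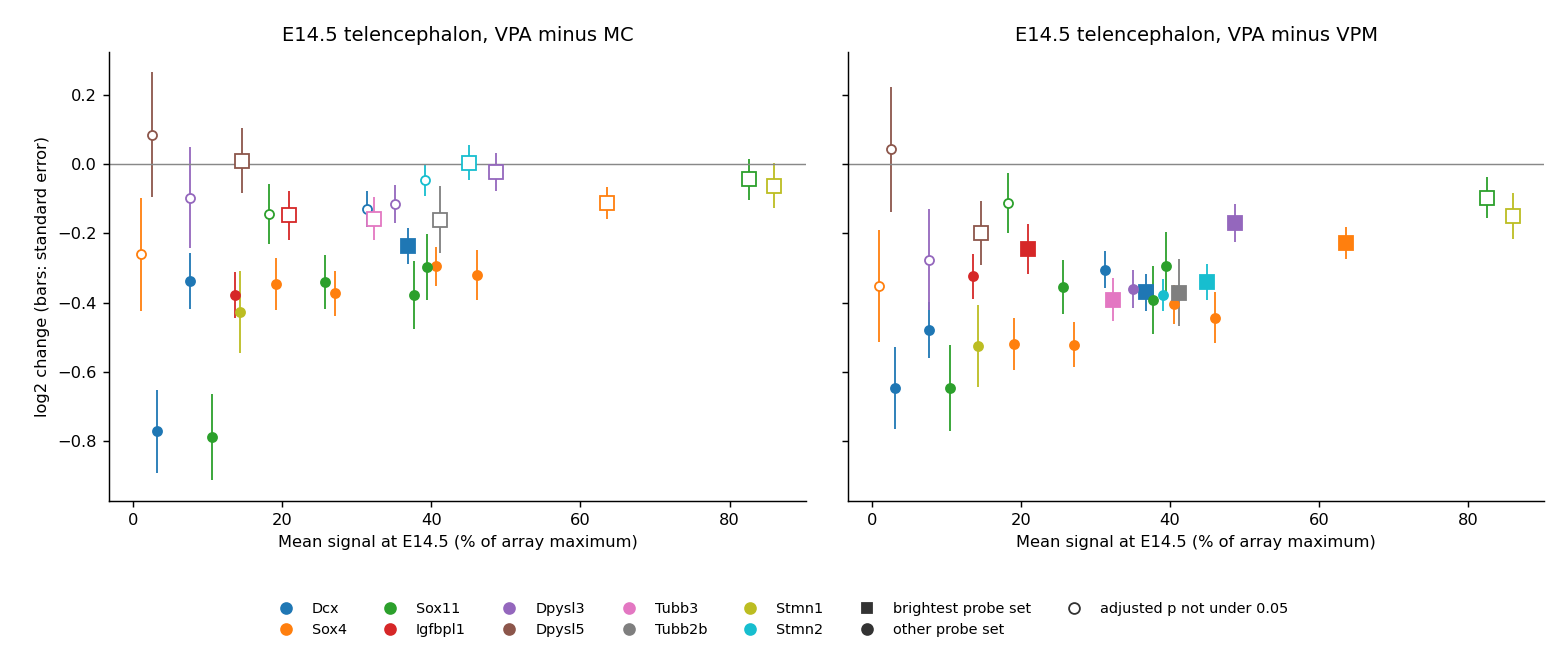
Each of the 29 tested probe sets is placed by its mean E14.5 signal as a percentage of the array maximum (x) and its log2 difference with its standard error (y), for VPA minus MC (left) and VPA minus VPM (right). Squares are the brightest set of each gene and filled marks passed an adjusted p of 0.05 in the fit with every probe set, in which the brightest sets of Sox4 and Tubb3 did not pass for VPA minus MC. The 3 sets above 50% of the maximum differ by -0.11 to -0.04 on the left, and those below by -0.79 to 0.09.

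Among probe sets above 50% of the array maximum, 0 of 3 passed for VPA against MC and 1 of 3 for VPA against VPM. Of the 26 dimmer sets, 13 and 21 passed. What part the brightness of a set plays in the size of its difference was not tested. Sets ending in _s_at or _x_at, and those of near-identical tubulins such as Tubb2a and Tubb2b, can bind related transcripts, and that cross-match was not tested either.

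Other genes of the same pathway were read from lists. Of 25 genes of migration and growth cones, 13 were lower and 3 higher in VPA than in MC. Those with the smallest adjusted p were Marcks (-0.56), the actin-binding drebrin gene Dbn1 (-0.42), the Cdk5 activator Cdk5r1 (-0.25) and Tagln3 (-0.53). Of 15 further members of the same families, 2 were lower and 3 higher: the third SoxC factor Sox12 (-0.46) and the doublecortin-like kinase Dclk1 (-0.22) were lower, and Tuba4a (0.78) and Stmn4 (0.43) were among the higher. Of 19 neuronal differentiation factors, 14 were lower and 1 higher, led by Bcl11a (-1.01), Nhlh2 (-1.07), Tbr1 (-1.38) and St18 (-1.02). The list's median was -0.42, beside 26.8% of all genes called lower.

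Progenitor and cell cycle genes also differed in these arrays. Of 14 progenitor genes, 9 were lower in VPA than in MC and none higher, with Neurog1 at -2.12 and Eomes, a marker of intermediate progenitors, at -0.92. Of 14 cell cycle genes, 12 were lower and 1 higher. Of 11 genes of mature neurons, 5 were higher, among them the neurofilament gene Nefm (0.68) and Snap25 (0.54), and none lower. Between VPM and MC, 13 of 14 cell cycle genes and 10 of 14 progenitor genes were lower. Of 19 differentiation factors 2 were higher and 2 lower after VPM, and of 15 family genes 5 were higher and 1 lower. Compared directly, 13 of 19 differentiation factors, 16 of 25 migration genes and 9 of 15 family genes were lower after VPA than after VPM. Among the genes with the smallest adjusted p in these lists, Bcl11a (-1.20) and Cdk5r1 (-0.52) were lower, while the family gene Tuba4a went the other way (1.08).

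Some markers of other cells separated the groups and others did not. The summed interneuron markers overlapped, at 9638 to 15593 in MC, 11700.3 to 13685 in VPA and 13324 to 19891 in VPM. Endothelial markers summed to 2122 to 2325, 1569 to 1704 and 2302 to 2702, and embryonic red cell markers to 10983 to 12984, 6543 to 10052 and 2536 to 3184, in the same order. Summed markers of the oligodendrocyte lineage were 1037 to 1407 in MC, 1556 to 1840 in VPA and 1559 to 2202 in VPM. Astrocyte markers summed to 2855 to 3449, 2237 to 2423 and 2512 to 3280.2, and microglia markers to 1160.5 to 1266, 1109 to 1275 and 1442 to 1541, in that order. The 7 summed choroid markers were 264 to 342 in MC, 318 to 411 in VPA and 284 to 20324 in VPM, the last being replicate 3. Without that array, 6 of the 10 genes were lower after VPA than after VPM, with Dcx at -0.33 (adjusted p = 0.000492), and 1 was higher after VPM than after MC. Leaving that array out also took the calls over all 11068 genes from 1279 to 559 for VPM against MC. For VPA against VPM the calls over all genes ran from 5301 to 6063 on leaving out each of the 9 arrays. The part of the remaining cell types in the differences was not tested.

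At E18.5, 4 days after the last dose, none of the 10 genes passed in any of the 6 comparisons in hippocampus and forebrain.

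In E18.5 hippocampus the 9 negative VPA minus MC differences of 10 ran down to -0.19. Their median over the 10 was -0.14, against -0.01 over all genes. With the values as deposited, without rescaling, the median of all genes was 0.15. Xist was high on 0 of 3 MC, 2 of 3 VPA and 1 of 3 VPM hippocampus arrays, so inferred sex differs between these groups. Tubb2b read 19697, 20660.3 and 20122 in MC and 15945, 17118 and 20015 in VPA, a difference of -0.19 with an adjusted p of 0.37. Tubb3 read 13802, 12266 and 13549.5 in MC and 11017, 11408 and 12828 in VPA, with a difference of -0.17 (-0.31 to -0.03, adjusted p = 0.312). Dcx read 13303, 13174 and 13981 in MC, 12032, 12354 and 13199 in VPA and 12552, 13059.5 and 13306 in VPM, and VPA minus MC was -0.11 (adjusted p = 0.397). Of its 4 probe sets 3 had the other sign, up to 0.41 on 1418140_at, and none passed. MC and VPA overlapped for all 10 genes, beside 17.8% of all genes that did not overlap. Limma called 0% of all genes between VPA and MC, 0.00867% between VPM and MC and 0% between VPA and VPM. Before adjustment, limma gave a p under 0.05 to 13.1%, 10.3% and 14.9% of all genes in these comparisons, and to Tubb3 and Tubb2b among the 10 between VPA and MC. Between VPA and VPM the 10 differences ran from -0.27 to -0.02. Choroid markers summed to 1719 to 29630 in MC, 22604 to 26960 in VPA and 1103 to 27121 in VPM hippocampus, and their part was not tested.

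In E18.5 forebrain, Igfbpl1 stood apart in values but not in the test. It read 4689.8, 5153 and 4943 in MC, 3589, 3980.1 and 4238 in VPA and 5591, 4127 and 5255 in VPM. Every VPA array was below every MC array, where 22.3% of all genes did not overlap in 1 direction or the other. The difference was -0.33 (SE 0.10, -0.55 to -0.11, adjusted p = 0.13). VPA minus VPM was also -0.33 (adjusted p = 0.179), with overlap, where 17.1% of all genes did not overlap. The other 9 genes had a wide overlap between groups; Dcx, for instance, read 11349, 11502 and 12364 in MC and 11649, 11011 and 12323 in VPA. The median difference over the 10 was 0.00, and 2.16% of all genes were called between VPA and MC (1.09% higher and 1.06% lower), 0% between VPM and MC and 0.53% between VPA and VPM. Between VPA and VPM the 10 differences ran from -0.33 to 0.10. At an unadjusted p under 0.05, 16.1%, 5.44% and 12.4% of all genes passed.

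Dimmer probe sets gave calls here. In the fit with every probe set, where 1.21% were called between VPA and MC in either direction, 3 sets were lower. They were 1429372_at of Sox11 (-0.28, means of 6785 ± 428 in MC and 5584 ± 79.0 in VPA, SD, n = 3), 1436790_a_at of Sox11 (-0.41, adjusted p = 0.0308) and 1450960_at of Igfbpl1 (-0.28, adjusted p = 0.0261). All 3 were also lower in the VPA telencephalon at E14.5, in other arrays. In that telencephalon 48.4% of all probe sets were called in either direction, and 13 of the 29 tested sets of these genes were lower. With the mean over each gene's probe sets, Sox11 differed by -0.23 (adjusted p = 0.0333) and Igfbpl1 by -0.30 (adjusted p = 0.0462) in E18.5 forebrain.

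Progenitor genes were lower in the same forebrain arrays. Of 13 tested, 5 were lower in VPA than in MC and none higher, with Eomes at -0.85 and the proneural gene Neurog2 at -0.93. Of 14 cell cycle genes 5 were lower, led by Top2a (-0.44) and Cdk1 (-0.41), and of 18 differentiation factors 3 were lower: Insm1 (-0.47), Nhlh2 (-0.50) and Myt1 (-0.45). None of 25 migration genes or 12 mature neuron genes passed, and of 15 family genes Tuba4a was higher (0.40). The choroid plexus markers, 5 of 6 of them lower with a median of -2.19, moved with the same contrast, and their part was not tested. Without VPA replicate 1 the count over all genes fell from 248 to 35 for VPA against MC and from 61 to 0 for VPA against VPM. The VPA effect at E18.5 in forebrain minus that at E14.5 in telencephalon passed for none of the 10 genes, where 29.4% of all genes passed, with Dcx at 0.23 (adjusted p = 0.278) and Tubb3 at 0.17 (adjusted p = 0.144). The VPA effect in hippocampus minus that in forebrain at E18.5 also passed for none, where 0.103% of all genes did, 15 in number, a count that ran from 4 to 83 on leaving out 1 of the 12 arrays and was 0 with only the groups compared.

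The genes were far lower in the adult. Between E18.5 and the adult, all 10 were lower in vehicle hippocampus, in the day 84 hippocampus and in cortex, by medians of -3.53, -3.53 and -3.63, against 0.12, 0.13 and 0.14 over all genes. Dcx was 56.8-fold, Sox11 37.9-fold and Igfbpl1 at least 189-fold lower in adult than in E18.5 hippocampus, while Stmn1 and Stmn2 were 2.51-fold and 2.47-fold lower. Of all genes, 36.8%, 37.7% and 36.1% were called lower in the 3 comparisons, and 81.5%, 82.8% and 80.9% in either direction. Age, dissection and the set of arrays cannot be told apart here. Xist was high on 2 of 3 vehicle forebrain arrays and 0 of 3 vehicle hippocampus arrays at E18.5, so inferred sex also differs in the comparison with cortex.

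Dcx held 1.77% of its E18.5 level in adult hippocampus. Vehicle hippocampus had 13486 ± 434 at E18.5, 239 ± 38.5 at 12 to 13 weeks and, with n = 4, 251 ± 25 at day 84, and forebrain and adult cortex had 11738 ± 547 and 344 ± 44.7 (means ± SD, n = 3 unless given). Every adult array lay below 400, against 9688 or more on every embryonic array. Its adult signals were above the floor of 32 on all 32 adult arrays. In order of vehicle level E18.5 hippocampus stood first, then E18.5 forebrain and E14.5 telencephalon, then adult cortex and the 2 sets of adult hippocampus. E18.5 hippocampus minus forebrain, at 0.20, and forebrain minus telencephalon, at 0.01, did not pass, while E18.5 hippocampus and E14.5 telencephalon, whose arrays do not overlap, were not compared by a test.

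Sox4 was 18208 ± 1348 at E18.5 and 1644 ± 28.6 in adult hippocampus, 19236 ± 1612 in forebrain and 1881 ± 111 in cortex, a difference of -3.47 in hippocampus with 9.03% left. Sox11 went from 18012 ± 279 to 480.0 ± 84.6 in hippocampus, a difference of -5.24 with 2.66% left, and from 17479.8 ± 1836 to 443 ± 31.9 in cortex. At day 84, vehicle hippocampus had 1564 ± 38.6 for Sox4 and 492 ± 23.2 for Sox11 (n = 4). These remnants are those of the brightest sets: over all tested sets the median fall in hippocampus was -4.39 for Sox4 and -4.77 for Sox11.

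Igfbpl1 could not be measured in the adult. It was 6143 ± 1207 in vehicle hippocampus and 4928 ± 232 in forebrain at E18.5, and between 5.00 and 16.1 on all 32 adult arrays, under the floor of 32. Its fold is therefore a lower bound against that floor, at least 189-fold in hippocampus and at least 154-fold in cortex. It was not tested within the adult sets.

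The collapsin response mediators and tubulins lay between. Dpysl5 was 3774 ± 114 at E18.5 and 258 ± 38.7 in adult hippocampus, 14.7-fold lower, and Dpysl3 was 12937 ± 736 and 1065 ± 8.79, 12.1-fold lower. In forebrain and cortex Dpysl5 was 4770.5 ± 139 and 269 ± 38.5, and Dpysl3 was 12391 ± 946 and 833 ± 122. Tubb3 was 13206 ± 824 and 1791 ± 103 in hippocampus, 7.37-fold lower, and 12641 ± 862 and 2451 ± 144 in forebrain and cortex, 5.16-fold lower. Tubb2b was 20159.9 ± 483 and 5028 ± 599 in hippocampus, 4.03-fold lower, and 16929 ± 1009 and 3242 ± 511 in forebrain and cortex, 5.26-fold lower. At day 84 (n = 4) vehicle hippocampus had 277 ± 36.8 for Dpysl5, 1130.2 ± 72.3 for Dpysl3, 1830.2 ± 87.9 for Tubb3 and 5516 ± 259 for Tubb2b.

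The stathmins kept more of their signal. Stmn1 was 23027 ± 1318 at E18.5 and 9214 ± 1004 in adult hippocampus, with 40.0% left, and 21014 ± 2937 and 13909 ± 1235 in forebrain and cortex, with 66.2% left. Stmn2 was 16922 ± 307 and 6852 ± 136 in hippocampus, with 40.5% left, and 16106 ± 1363 and 6411 ± 300.0 in forebrain and cortex. At day 84 vehicle hippocampus had 9103 ± 417 for Stmn1 and 6604 ± 457 for Stmn2 (n = 4). The dimmer Stmn1 set 1448113_at differed by -2.63 in hippocampus where the brightest differed by -1.33. For Sox4 the dimmer sets ran from -4.14 to -5.20, except 1455867_at at -0.85.

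**Figure D3:**
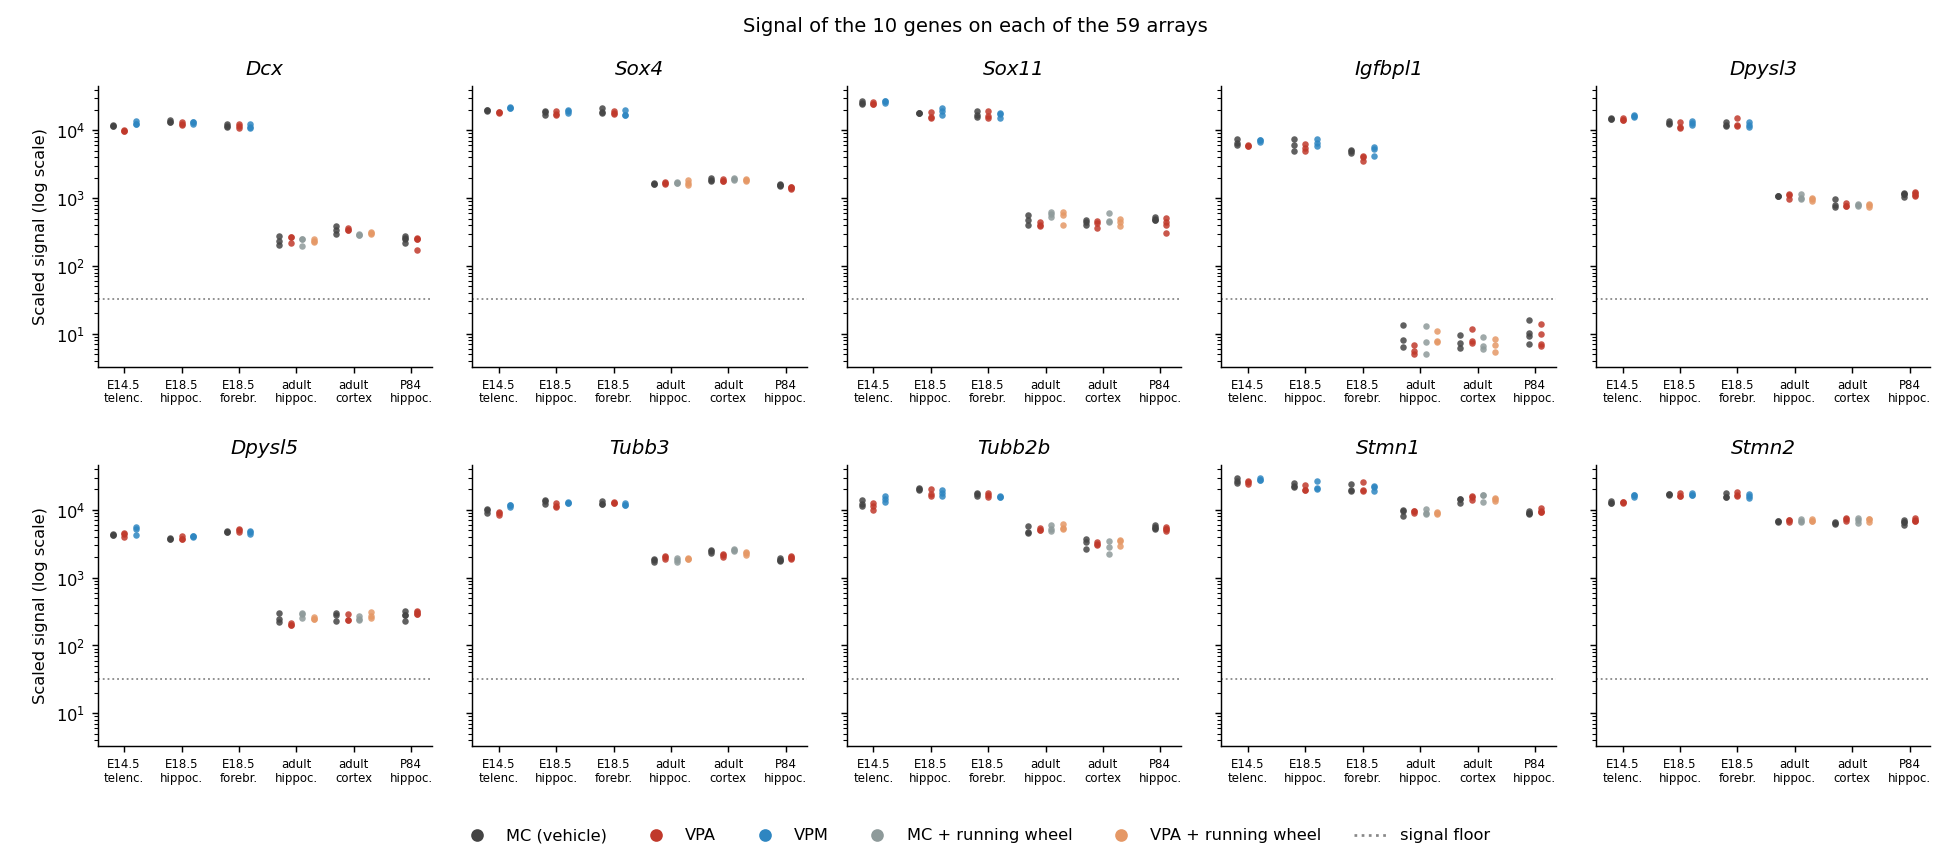
Scaled signal of each gene's brightest probe set on a log axis, 1 point per array, in the 6 sets of arrays, with colours for treatment and a dotted line at the floor of 32. All embryonic points lie above all adult points for each of the 10 genes, and Igfbpl1 lies under the floor on all 32 adult arrays.

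**Figure D4:**
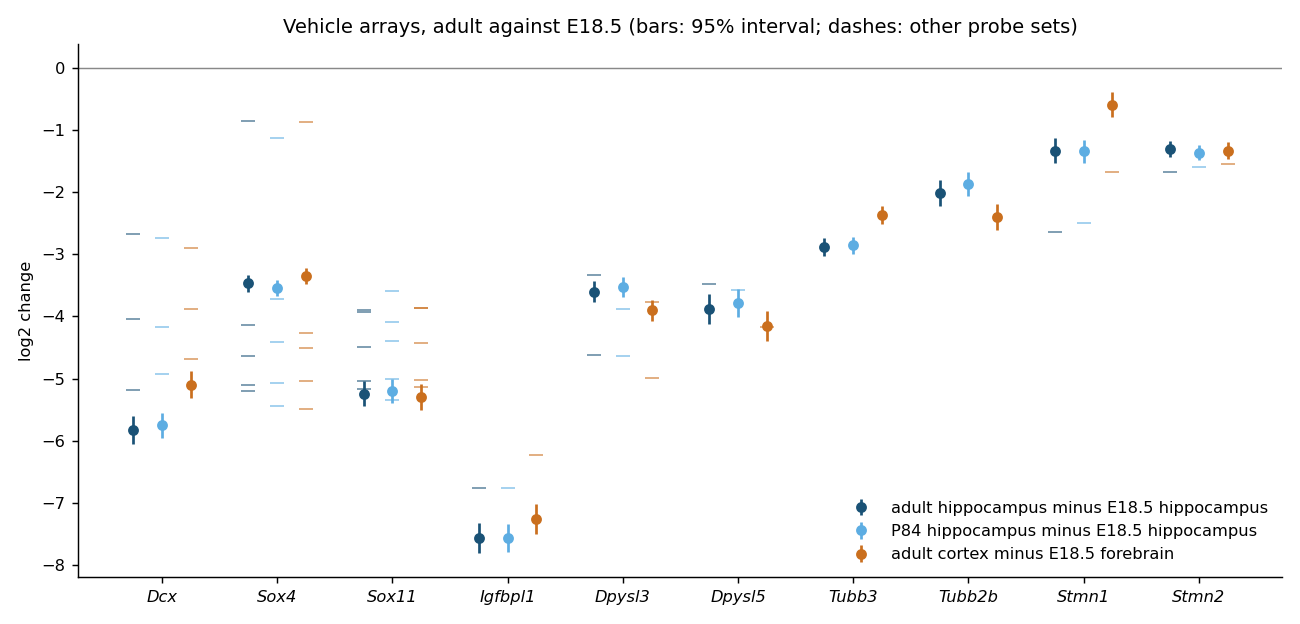
Log2 difference between adult and E18.5 vehicle arrays, with 95% intervals, for each gene in hippocampus at 12 to 13 weeks, hippocampus at day 84, and cortex against forebrain; dashes are the gene's other probe sets. All 10 genes lie below 0 in each comparison, from -1.30 for Stmn2 to -7.57 for Igfbpl1 in hippocampus, where the Igfbpl1 value is set by the floor.

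The 10 genes were lower in the adult in all 15, 16 and 15 other settings tried for the 3 comparisons, and all 29 tested probe sets were lower in adult hippocampus. All 7 striatal markers were higher in adult cortex than in E18.5 forebrain, with a median of 1.89, and their part was not tested. In hippocampus adjusted p ran from 7.61e-20 to 2.31e-10. Other genes of the pathway fell less uniformly. Of 15 family genes 10 were lower and 3 higher, with Sox12 at -2.72, Crmp1 at -2.18 and Dpysl4 at -2.19 against Tuba4a at 2.83. Of 25 migration genes 18 were lower and 3 higher, among them Marcksl1 (-2.85), Mapt (-2.11), Marcks (-1.88) and L1cam (-1.52). Of 19 differentiation factors 15 were lower and 1 higher, including Insm1 (-3.64) and Nhlh2 (-3.46). All 14 cell cycle genes were lower, with Rrm2 at -5.25 and Cdk1 at -5.17, and all 13 mature neuron genes were higher, with the vesicular glutamate transporter Slc17a7 at 4.76 and the neurofilament gene Nefh at 4.72.

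Between E14.5 telencephalon and E18.5 forebrain, the vehicle arrays differed in 7 of the 10 genes. Tubb2b was higher by 0.43 (adjusted p = 0.00116), Tubb3 by 0.36 (adjusted p = 0.000178) and Stmn2 by 0.32 (adjusted p = 0.000248), and these calls held on leaving out each of the 6 vehicle arrays. Sox11 (-0.56), Igfbpl1 (-0.42), Stmn1 (-0.35) and Dpysl3 (-0.25) were called lower, but Igfbpl1, Stmn1 and Dpysl3 turned to 0.01, 0.09 and 0.18 with the values as deposited, and Sox11 was 0.29 on its set 1436790_a_at. Dcx (0.01), Sox4 (-0.04) and Dpysl5 (0.15) did not pass. In the fit with every probe set, however, 2 of 4 Dcx sets were lower, 1418140_at at -0.98 and 1448974_at at -1.03, and 3 of 6 Sox4 sets were lower, with a median of -0.38 over the 6. There, 2 of 3 Dpysl3 sets were higher, up to 0.33, and 1 of 2 Stmn1 sets was higher, at 0.62. Over all 29 tested sets 7 were higher and 12 lower. Of all genes 54.1% were called, 30.2% higher and 23.9% lower. Over the same interval 11 of 13 mature neuron genes were higher, and 13 of 14 progenitor genes and 14 of 14 cell cycle genes were lower. Of 7 choroid plexus markers 6 were higher in the forebrain, with a median of 2.30, and of 7 striatal markers all were higher, with a median of 1.09; their part was not tested. The tissue differs between the 2 ages as well, and age and tissue cannot be told apart.

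Between regions of the vehicle brain, E18.5 hippocampus and forebrain differed in 1 of the 10 genes, where 20.6% of all genes were called. Dpysl5 read 3905, 3709.7 and 3706 in hippocampus and 4748, 4644 and 4919 in forebrain, without overlap, as for 39.3% of all genes, a difference of -0.34 (-0.58 to -0.10, adjusted p = 0.0432). That call was lost on leaving out any 1 of the 6 arrays (adjusted p from 0.0721 to 0.122). Its second probe set, 1441246_s_at, differed by -1.03 (adjusted p = 0.000562). Of 7 striatal markers 5 were lower in hippocampus, with a median of -1.79, and of 7 choroid markers none passed, with a median of -0.70; their part was not tested.

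In the adult, 6 of the 10 genes differed between vehicle hippocampus and cortex, where 16.4% of all genes did. Tubb2b (0.64, adjusted p = 0.000109) and Dpysl3 (0.36, adjusted p = 0.00383) were higher in hippocampus. Stmn1 (-0.60, adjusted p = 0.000161), Tubb3 (-0.45, adjusted p = 8.6e-05) and Sox4 (-0.19, adjusted p = 0.041) were lower, the last kept on leaving out 1 of the 6 arrays. Dcx, which in the adult hippocampus marks the young granule neurons, was lower there than in cortex: 204, 280.3 and 234 in hippocampus and 300.2, 343 and 389 in cortex, without overlap, as for 29.6% of all genes, and with a difference of -0.53 (-0.75 to -0.31, adjusted p = 0.00119). Its sets 1418141_at, 1418140_at and 1448974_at differed by -0.52, 0.02 and -0.11. All 7 striatal markers were also lower in hippocampus than in the samples labelled cortex, with a median of -2.62, and their part was not tested. Igfbpl1 was under the floor in both.

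In adult males, none of the 9 genes that could be tested differed after prenatal VPA, after running, or in the effect of running between VPA and MC animals. This held for the 5 comparisons in hippocampus, the 5 in cortex and the 1 in the day 84 set. Of all genes limma called 0% in each hippocampal comparison and at day 84. In cortex it called 0.00735% between VPA and MC, 0.0147% for running after MC, 0% for running after VPA, 0.022% between VPA and MC runners and 0% for the interaction. The 2 genes called in cortex for running after MC became 0 to 133 on leaving out 1 of the 12 arrays, the highest without MC runner replicate 3. At an unadjusted p under 0.05, between 0 and 2 of the 9 genes passed in each comparison, beside 4.22% to 11% of all genes in hippocampus, 4.95% at day 84, and in cortex from 6.23% up to 1835 of 13606 genes for running after MC.

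Dcx in adult hippocampus read 204, 280.3 and 234 in MC, 272, 219.8 and 266 in VPA, 194, 249 and 246 in MC runners and 227, 234 and 248 in VPA runners. The 4 groups overlapped. VPA minus MC was 0.08 (-0.24 to 0.41, adjusted p = 0.862), running after MC was -0.05 (-0.38 to 0.27, adjusted p = 0.952) and running after VPA was -0.09 (-0.41 to 0.23, adjusted p = 0.916). The difference between the 2 running effects was -0.04 (-0.49 to 0.42, adjusted p = 0.996). In the day 84 set Dcx read 253, 257, 216 and 276 in MC and 254, 172, 249 and 247 in VPA, a difference of -0.13 (-0.45 to 0.18, adjusted p = 0.933), where VPA replicate 2 was the lowest of the 8.

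In adult cortex Dcx read 300.2, 343 and 389 in MC and 281, 295 and 284 in MC runners, with no overlap and a difference of -0.26 (-0.48 to -0.03) that did not pass (adjusted p = 0.329); 17.8% of all genes did not overlap there. In VPA animals it read 365, 336 and 340.4 without and 317, 305 and 295 with a wheel, also without overlap, as for 13.3% of all genes, at -0.18 (adjusted p = 0.842). VPA minus MC without a wheel was 0.02 (-0.21 to 0.25). None of 7 striatal markers passed within the cortex set, where their sums ran from 20697 to 26192 in MC, 24737 to 29758 in MC runners, 21251 to 23832 in VPA and 21651 to 25618 in VPA runners.

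Sox11 in adult hippocampus read 398, 567 and 475 in MC, 439.8, 396 and 383 in VPA, 589, 519 and 617 in MC runners and 562, 627 and 402 in VPA runners. VPA minus MC was -0.23 (-0.57 to 0.11, adjusted p = 0.602), and running gave 0.27 (-0.07 to 0.61, adjusted p = 0.674) after MC and 0.36 (0.02 to 0.70, adjusted p = 0.561) after VPA. The spread within groups was wide, from 402 to 627 in VPA runners and from 398 to 567 in MC animals. At day 84 Sox11 read 481, 491, 471 and 524 in MC and 504, 401, 309 and 439.7 in VPA, a difference of -0.27 (-0.55 to 0.01, adjusted p = 0.902). Sox4 at day 84 read 1604, 1512, 1562 and 1578 in MC and 1466, 1399.8, 1348 and 1478 in VPA, without overlap, as for 2.98% of all genes, and differed by -0.14 (-0.24 to -0.04, adjusted p = 0.902). In the 12 to 13 week hippocampus Sox4 read 1633, 1623 and 1676 in MC and 1687, 1752 and 1636 in VPA, with overlap.

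Dpysl5 in adult hippocampus read 249, 301 and 225 in MC, 202, 204 and 215 in VPA and 243, 261 and 245 in VPA runners. The VPA arrays lay below both other groups, as 16.9% of all genes did not overlap between VPA and MC and 15.6% between VPA with and without a wheel. VPA minus MC was -0.31 (-0.59 to -0.03, adjusted p = 0.422), and running after VPA gave 0.27 (-0.01 to 0.54, adjusted p = 0.596). In the day 84 hippocampus, the same contrast had the other sign, with 282, 228, 279.5 and 317 in MC and 294, 309.6, 295 and 319.5 in VPA and a difference of 0.15 (-0.09 to 0.39, adjusted p = 0.911). The test of the difference between the 2 sets gave 0.46 (0.18 to 0.73, adjusted p = 0.195).

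Tubb3 had VPA minus MC differences of opposite sign in the 2 adult regions. In hippocampus it read 1814, 1678 and 1881 in MC and 1859, 2114 and 1994 in VPA, with overlap and a difference of 0.15 (0.01 to 0.29, adjusted p = 0.432). In cortex it read 2551, 2515 and 2285 in MC and 2225, 1985 and 2163 in VPA, without overlap, as for 15.7% of all genes, at -0.21 (-0.34 to -0.07, adjusted p = 0.325). The difference between regions was 0.36 (0.18 to 0.53, adjusted p = 0.113), where 0.0207% of all genes passed. It passed without VPA hippocampus replicate 1 (adjusted p = 0.0452) or MC cortex replicate 3 (adjusted p = 0.0459) and on leaving out no other of the 12 arrays compared. The 95% intervals of the 9 genes reached 0.10 to 0.34 to either side in hippocampus, 0.13 to 0.31 in cortex and 0.10 to 0.32 at day 84 for differences between 2 groups. For the difference between running effects they reached 0.14 to 0.48 in hippocampus and 0.19 to 0.43 in cortex.

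**Figure D5:**
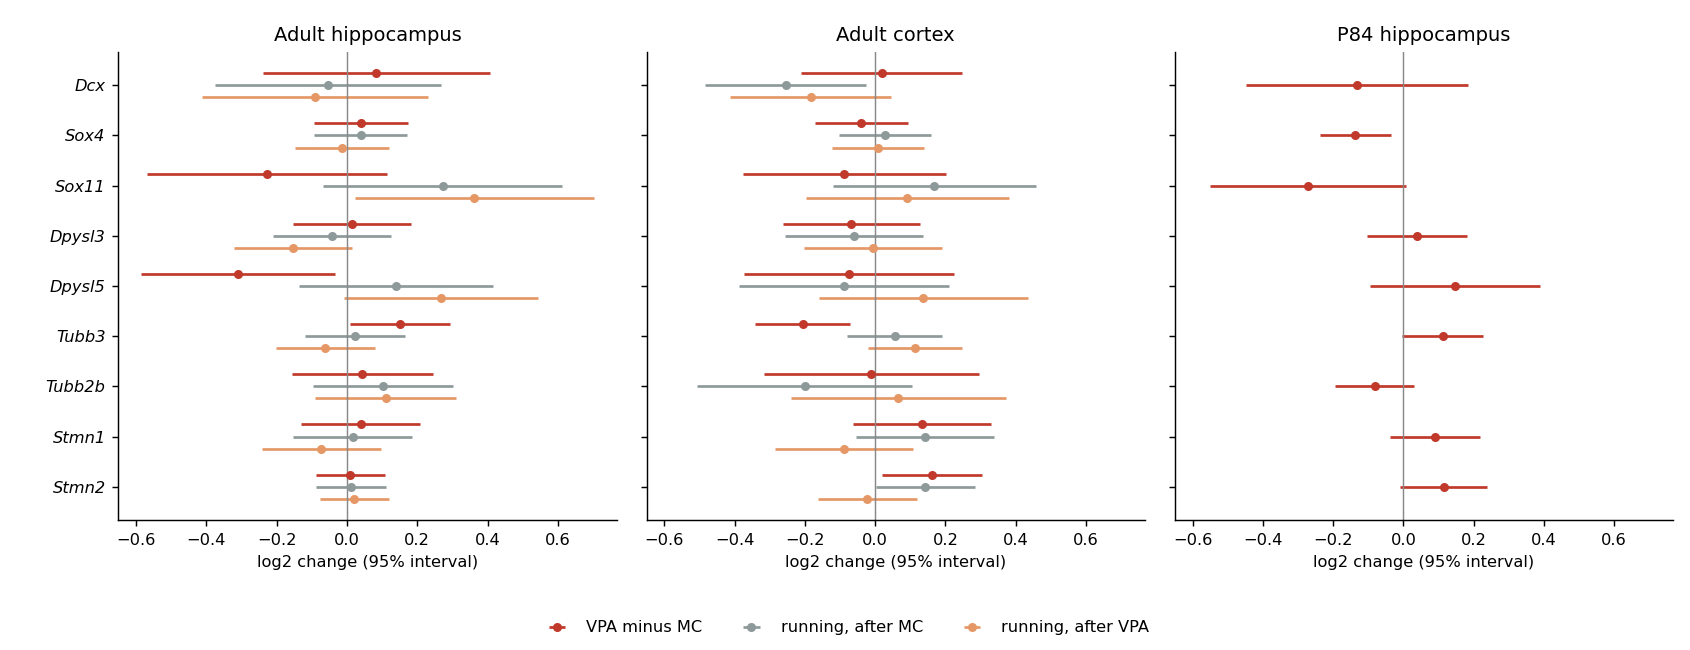
Log2 differences with 95% intervals for the 9 genes tested in the adult, in 3 panels for adult hippocampus, adult cortex and day 84 hippocampus. Colours mark VPA minus MC, running after MC and running after VPA, and the day 84 panel holds only the first. None passed an adjusted p of 0.05; in hippocampus Sox11 lies at -0.23 for VPA and at 0.27 and 0.36 for running, and Dcx at 0.08, -0.05 and -0.09.

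Other genes of adult neurogenesis were read from a list of which 10 could be tested in the 12 to 13 week hippocampus. None passed between VPA and MC; Eomes differed by -0.42 and Calb2, made by immature granule neurons, by -0.13. None of 5 cell cycle genes, 15 family genes, 25 migration genes, 19 differentiation factors or 12 progenitor genes passed in that comparison.

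Over the 19 group means, the genes most like the averaged standardised profile of the 10 were Tspan6, Pafah1b3, Bach2, Mapre1, St8sia2, Gmip, Bach1 and Dact1, with Pearson r of 0.998 to 0.999 among 14514 other genes. Such values were common: 1614 genes had an r above 0.95 over these groups, of which 9 are embryonic and 10 adult. The nearest gene to Dcx was Sox4 (0.998). The others were Bach1 for Sox4, Ppp1r14b for Sox11, Bach2 for Igfbpl1, Tbca for Dpysl3, Gmip for Dpysl5, Cxadr for Tubb3, Gng2 for Tubb2b, Mapk6 for Stmn1 and Shtn1 for Stmn2, at 0.991 to 0.999. Among the 45 pairs of the 10 genes, r ran from 0.714 to 0.998 over all groups, with a median of 0.98. Over the 9 embryonic groups alone it ran from -0.771, for Sox11 and Tubb2b, to 0.974, for Sox11 and Stmn1, with a median of 0.031. In the embryo Tubb3 went with Stmn2 (0.944) and Tubb2b (0.937), and Sox11 and Dpysl3 with Stmn1 (0.974 and 0.97). These correlations share arrays, scaling and age between genes and are descriptions.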

How the data were processed

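Affymetrix whole-genome mouse arrays had been run on RNA of 59 tissue samples in 19 groups. The deposited values are probe set intensities on a linear scale, made by the authors with GCOS per the submitters' processing notes; which algorithm, scaling and target made the signal is not given in the sources used here. Deposited trimmed means differed between arrays, from 197.6 to 419.4, so each array was rescaled to a 2% trimmed mean of 500, which removes any shift common to all probe sets; signals under 32 were set to 32 and log2 was taken. Within groups, arrays correlated at 0.972 to 0.994, and no array was a copy of another. Per the deposited annotation, 34958 probe sets had 1 gene symbol, 932 several and 9211 none; only the first were used, and 34754 of them matched an Entrez entry of the gene table.

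One probe set per gene was tested, that with the highest mean over all arrays, and genes had to reach 100 on at least 3 arrays (4 in the day 84 set). Each set of arrays was fitted with limma 3.58.1 (R 4.3.3) with an intensity trend, and p-values were adjusted by Benjamini-Hochberg over all genes tested, with a threshold of 0.05. In all 30 comparisons were made: within each set, between ages and regions in vehicle arrays, and between VPA effects. Igfbpl1 did not reach the filter in the adult sets. Tested on simulated data, the fit for VPA against MC in telencephalon recovered 62% of log2 changes of 0.5 and 87% of 1.0, and that in adult hippocampus 49% and 86%. Of 165 and 144 genes called in these 2 tests, 16 and 9 were false. In the real telencephalon arrays 5954 of 11068 genes were called for VPA against MC. The simulated data thus held far fewer calls, and their rates need not carry over to that comparison. The differences of the 10 genes at E14.5, from -0.39 to 0.35, were smaller than either simulated size, so their recovery was not tested.

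The members and the gene lists were chosen with earlier results of these data known. All 10 genes are named in the text; from other lists up to 4 genes with the smallest adjusted p in a comparison; and for likeness the 8 nearest genes and each gene's nearest. The alternatives tried were quantile normalization, values as deposited, log2(signal + 32), no filter, a filter at 200, no intensity trend, the mean over probe sets, each other probe set, a replicate block, only the groups compared, inferred sex in the embryonic sets, and leaving out each array. Figures were drawn with matplotlib 3.10.9.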

Additional observations from a re-analysis of the deposited data

Results flagged for a closer look

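In the day 84 hippocampus, whose groups of 4 allow single arrays to be compared with the rest, 3 of 20 tests for an array that stands apart from its group passed; chance gives about 1 in 20. Dcx in VPA replicate 2 read 172 against 247 to 254 on the other VPA arrays, a gap of 0.906 of the group's range. Stmn2 on the same array read 7654 against 6936 to 7036, a gap of 0.86 of the range. Dpysl3 in MC replicate 1 read 1022 against 1157 to 1177, a gap of 0.872 of the range. None of the 6 comparisons between effects passed for any of the genes. They tested VPA between ages, regions or the adult hippocampal sets of arrays, and running between VPA and MC.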

How the results depend on the processing

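The number of the 10 genes called was within 1.5 times the main count in all 30 comparisons with quantile normalization, log2(signal + 32) and a filter at 200. For VPA against MC at E14.5, 3 genes were called; the count was 0 with values as deposited, 1 with no filter, no intensity trend, only the groups compared or inferred sex, 6 with the mean over probe sets, and 1 to 4 on leaving out an array: 1 without MC replicate 2 or 3, VPA replicate 1 or 3 or VPM replicate 1 or 3, and 4 without MC replicate 1. For VPM against MC it went from 2 to 0 with values as deposited, 1 with no filter, no trend or inferred sex, and 1 to 3 on leaving out an array. For VPA against VPM it went from 7 to 3 with values as deposited and 6 to 8 on leaving out an array. In E18.5 forebrain it was 0 for VPA against MC, 2 with the mean over probe sets, and 0 to 1 on leaving out an array (1 without VPM replicate 2). Between E18.5 hippocampus and forebrain it went from 1 to 0 with no filter or no trend, 2 with the mean over probe sets, 3 with only the groups compared, and 0 to 1 on leaving out an array. Between adult hippocampus and cortex it went from 6 to 3 with only the groups compared, and 5 to 6 on leaving out an array. For the VPA effect in E18.5 forebrain minus that at E14.5 it went from 0 to 1 with the mean over probe sets and with only the groups compared. For the VPA effect in adult hippocampus minus cortex it was 0 to 1 on leaving out an array, and for E18.5 forebrain against E14.5 telencephalon 6 to 7. The cause of these moves was not tested.

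Whether the replicate numbers pair the samples is not known. Around their group means, same-numbered arrays of different groups correlated at -0.283 to 0.383, and differently numbered ones at -0.413 to 0.338. In each E18.5 group replicate 3 had the lowest deposited trimmed mean, 207.4 to 269.9 against 270.1 to 344.0 on the others. With the replicate number as a block, 4 genes were called for VPA against MC, 3 for VPM against MC and 8 for VPA against VPM at E14.5, and 2 between E18.5 hippocampus and forebrain; of 289 single differences, called or not, 4 gained a call, 1 lost it and 284 kept their direction and their side of the threshold. Of differences called in the main or the other setting, 16 turned their sign between vehicle E18.5 forebrain and E14.5 telencephalon. There Dcx was -0.53 with the mean over probe sets, -0.98 on 1418140_at and -1.03 on 1448974_at; Sox4 was 0.28 with quantile normalization and 0.39 as deposited; Igfbpl1 was 0.015 as deposited; Dpysl3 was 0.18 as deposited, 0.13 with the mean, 0.30 on 1415877_at and 0.33 on 1438789_s_at; Stmn1 was 0.030, 0.086 and 0.14 with quantile normalization, as deposited and with the mean, and 0.62 on 1448113_at; Sox11 was 0.29 on 1436790_a_at and 0.065 on 1453125_at. Between adult hippocampus and cortex Dcx was 0.018 on 1418140_at and Sox4 0.049 on 1455867_at. Signs that differ between probe sets with no call on either side are not counted here.

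Over all genes, 1279 calls for VPM against MC at E14.5 became 424 as deposited, 619 with no filter and 559 without VPM replicate 3. In E18.5 forebrain 248 for VPA against MC became 24 as deposited, 58 with no filter, 161 with no trend, 160 with the mean over probe sets and 35 without VPA replicate 1, and 61 for VPA against VPM became 18, 7, 10 and, with only the groups compared, 20, and 0 without VPA replicate 1. As deposited, 52 were called for VPA against MC and 50 for VPA against VPM in E18.5 hippocampus and 24 at day 84, where none were before; 2895 became 1462 between E18.5 regions, 2302 became 983 between adult regions and 4267 became 1201 for the VPA effect between E18.5 forebrain and E14.5. The share of calls that were higher moved from 50.8% to 4.17% for VPA in E18.5 forebrain, from 55.8% to 91.2% between E14.5 and E18.5, from 47.6% to 13.1% between E18.5 regions and from 47.1% to 33.6% between adult regions; between E18.5 and adult it became 70.5%, 74.6% and 65.6%. The unscaled values shift the median of all genes by 0.15 and 0.14 for VPA in E18.5 hippocampus, -0.18 at day 84, 0.36 between E14.5 and E18.5, -0.16 between E18.5 regions, and 0.44, 0.57 and 0.32 from E18.5 to adult. On leaving out an array, the 15 calls for the VPA effect between E18.5 regions became 4 to 83, the 12 between adult hippocampal sets 0 to 69, the 3 between adult regions 0 to 33, and the 2 for running after MC in cortex 0 to 133.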
